A study of Mus musculus with 4 samples.

Results

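The 2 control libraries of a ChIP-seq experiment in mouse embryonic stem cells were compared with each other over the autosomes. One was Input, sonicated chromatin DNA without any antibody (3801082 reads), and the other was DNA recovered with control IgG (4755619 reads). They are 2 of the 4 libraries of the series, and the others were made with antibodies labelled as against LSD1 and against dimethylated lysine 4 of histone H3 (H3K4me2). All came from the unmodified 129SV line R1, kept with leukaemia inhibitory factor and taken at passages 13 to 18. Formaldehyde-fixed chromatin was used. The autosomes were divided into bins of 10 kb, and every bin was taken. A read of at least 1 of both controls fell in 236827 of them, out of 252178 such bins on all chromosomes. Each group held 1 library, so there is no replicate check and no p-value. What follows describes these 2 libraries.

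Input and IgG are both used as the background against which a ChIP signal is judged. Input samples the fragments that fixation and sonication release, and it is known to vary with copy number, with how uniquely reads can be placed and with how readily chromatin breaks. A control IgG has no intended target. It recovers DNA that sticks to the antibody, the matrix or the column, so its reads pass through the same washes and amplification as a ChIP. H3K4me2 is a mark of promoters and enhancers in accessible chromatin, and LSD1 is an enzyme that takes methyl groups off lysine 4 of histone H3. Their peak lists serve here as landmarks of such chromatin. The labels give the LSD1 antibody a catalogue number under which a different supplier sells an H3K27me3 antibody. A number shared between suppliers does not by itself contradict the label. The target of the antibody was not tested, so the name of the LSD1 list follows its label.

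The ratio of IgG to Input was computed from reads per 1000000 reads of each library (RPM). Each ratio carries a 95% interval for counting error alone. Bins differed from each other by more than that: within the 8 classes of distance described below, the variance of IgG counts given the reads of a bin was 1.20 to 1.46 times the counting variance. The range over the 19 autosomes is therefore given beside the main ratios. It shows how even a value was within these libraries, not how it would repeat in another culture. Since both libraries are scaled to the same total, an excess of IgG in one place lowers its ratio elsewhere. Over all autosomal bins the ratio was 1.01, with means of 4.12 RPM per bin for IgG and 4.09 for Input.

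IgG was not a flat copy of Input. In the 22141 bins that held at least 1 H3K4me2 peak, IgG reads averaged 7.06 RPM per bin and Input reads 5.32. In the 214461 bins that held no peak of either list, IgG averaged 3.81 and Input 3.97. Input was thus also higher where H3K4me2 peaks lay, and IgG was higher still. The IgG to Input ratio was 1.33 (1.32 to 1.33) with an H3K4me2 peak and 0.962 (0.960 to 0.963) without any peak, a quotient of 1.38 (1.37 to 1.38). On single autosomes this quotient lay between 1.31 and 1.45, above 1 on 19 of 19.

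The ratio rose with the number of H3K4me2 peaks in the bin. It was 0.962 in bins with 0, 1.27 (1.26 to 1.28) in the 13600 bins with 1 and 1.36 (1.35 to 1.37) in the 5892 bins with 2. In the 1706 bins with 3 it reached 1.50 (1.48 to 1.52), in the 624 bins with 4 it was 1.56 (1.53 to 1.59) and in the 319 bins with 5 or more it was 1.60 (1.56 to 1.65). The intervals of the last 2 classes overlapped. IgG rose more than Input. The mean of IgG went from 3.82 RPM per bin at 0 peaks to 9.17 at 5 or more, whereas Input went from 3.97 to 5.24 at 1 peak and then only to 5.73. Between 4 or more peaks and 0 the quotient of ratios was 1.64 (1.61 to 1.66), and the autosomes lay between 1.48 and 1.79.

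Bins with an LSD1 peak stood above bins without one at every number of H3K4me2 peaks. At 1 H3K4me2 peak the ratio was 1.45 (1.43 to 1.47) in the 1807 bins with LSD1 and 1.24 (1.24 to 1.25) in the 11793 without, a quotient of 1.17 (1.15 to 1.19). That quotient lay above 1 on 19 of 19 autosomes, from 1.03 to 1.60. At 2 H3K4me2 peaks the ratios were 1.49 and 1.32, at 3 they were 1.64 and 1.42, and at 4 or more 1.72 (1.67 to 1.76) and 1.45 (1.42 to 1.49). The 222 bins that held an LSD1 peak but no H3K4me2 peak had a ratio of 1.44 (1.38 to 1.50), about that of bins with 1 H3K4me2 peak and at least 1 LSD1 peak. By the number of LSD1 peaks alone, the ratio went from 0.993 at 0 to 1.48 at 1, 1.76 at 2, 1.97 (1.85 to 2.09) at 3 and 2.30 (2.01 to 2.63) in the 16 bins with 4 or more. Along this order Input fell slightly, from 5.29 RPM per bin at 1 LSD1 peak to 4.75 at 4 or more. The last mean rests on only 289 Input reads. Without the bins that hold an IgG peak, described below, the mean at 1 LSD1 peak was 5.19. The LSD1 library is itself an immunoprecipitate, and peaks of it can include places where any antibody recovers DNA. The part of this in the values was not tested.

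**Figure D1:**
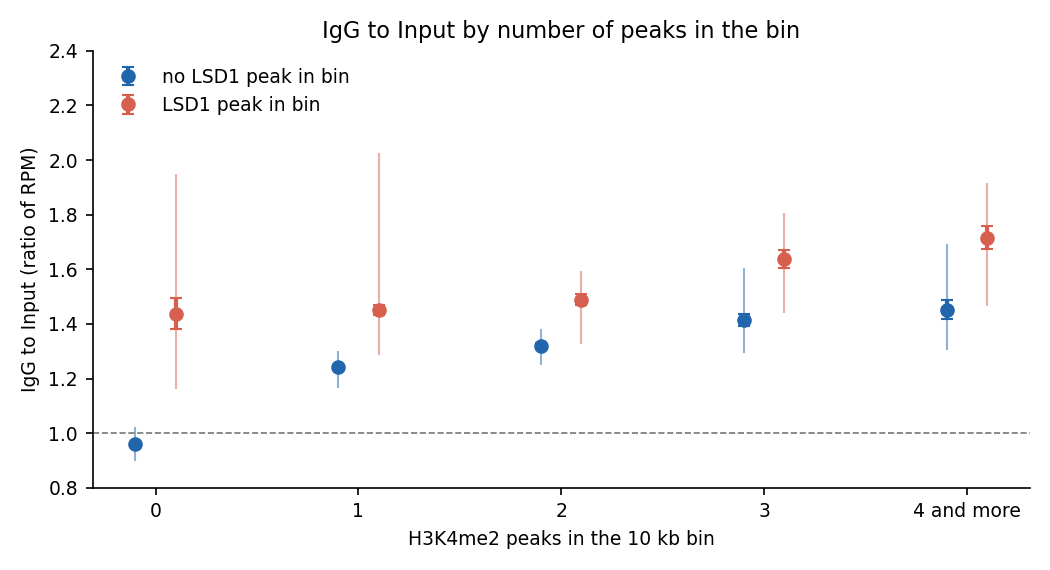
IgG to Input ratio of RPM (vertical axis) against the number of H3K4me2 peaks in the 10 kb bin, for bins without (blue) and with (orange) an LSD1 peak; points are pooled ratios, capped bars their 95% counting intervals and thin lines the range over autosomes with at least 100 Input reads in the class. The ratio rises from 0.962 in bins without any peak to 1.45 at 4 or more H3K4me2 peaks without LSD1, and to 1.72 with LSD1.

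Leaving out the 129 autosomal bins that hold a peak of the IgG list itself changed little in this picture. Those bins held 0.204% of autosomal IgG reads, and 48 of them also held an H3K4me2 or LSD1 peak. Without them the ratios at 0, 1, 2 and 3 H3K4me2 peaks were 0.962, 1.26, 1.36 and 1.50, and the quotient of bins with and without H3K4me2 peaks was 1.37 (1.37 to 1.38). The contrast for LSD1 at 1 H3K4me2 peak moved more, from 1.17 to 1.14 (1.12 to 1.15). The ratio in bins with an LSD1 peak but no H3K4me2 peak also moved, from 1.44 to 1.37 (1.32 to 1.43). The widest departures among autosomes also went. In bins with 1 H3K4me2 peak and at least 1 LSD1 peak the highest autosome had a ratio of 2.02 with these bins and 1.50 without them.

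The width of the H3K4me2 peak mattered less than the number of peaks. Among bins with 1 H3K4me2 peak and no LSD1 peak the ratio was 1.31 (1.29 to 1.33) where the peak was under 500 bp wide and 1.22 (1.21 to 1.23) from there to under 1 kb. It was 1.24 (1.23 to 1.26) from 1 to under 2 kb and 1.28 (1.23 to 1.32) at 2000 bp or more. The narrowest peaks thus had the highest ratio of these 4 classes, and its interval overlapped only that of the widest class, which held 241 bins. They did not have the most IgG. Bins with the narrowest peaks had the lowest means of both libraries, 5.98 RPM per bin in IgG and 4.56 in Input. The widest class had the highest, 7.73 and 6.06.

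The excess of IgG was strongest inside the peaks and did not end at their edges. Of the reads of bins with a peak, 145570 IgG and 55063 Input reads lay inside a peak, a ratio of 2.11 (2.09 to 2.13). The rest of the same bins had 604620 IgG and 396874 Input reads and a ratio of 1.22 (1.21 to 1.22). The quotient of both was 1.74 (1.72 to 1.75), with autosomes between 1.57 and 1.90. Outside the peaks the ratio still rose with their number in the bin, from 1.19 (1.19 to 1.20) at 1 H3K4me2 peak to 1.24 at 2, 1.32 at 3 and 1.36 (1.33 to 1.39) at 4 or more. Inside them the order ran the other way, from 2.22 (2.18 to 2.26) at 1 to 1.90 (1.85 to 1.95) at 4 or more. Reads outside peaks lie closer to an edge where a bin holds more peaks, and number and distance were not separated here. In bins with an LSD1 peak the ratio was 2.45 inside peaks and 1.31 outside, and in bins with H3K4me2 but no LSD1 peak it was 1.97 and 1.20. The control that the authors used for calling peaks is not given in the sources used here. A caller that sets a ChIP against Input favours places with few Input reads, and one that uses IgG favours places with few IgG reads. The part of this in the values inside peaks was not tested. With reads outside peaks alone, the quotient of bins with and without H3K4me2 peaks was 1.27 (1.26 to 1.27).

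A profile from the edge of the nearest peak outward, by base rather than by bin, showed how both libraries changed. Inside peaks IgG stood at 1.10 RPM per kb. It fell to 0.848 in the first 200 bp outside, 0.716 at 500 bp to 1 kb, 0.603 at 2 to 5 kb and 0.474 at 20 to 50 kb. Input did not follow. It was 0.519 RPM per kb inside peaks, 0.481 in the first 200 bp outside, highest at 500 bp to 1 kb at 0.571, and then lower again, down to 0.450 at 20 to 50 kb. The high ratio at peaks therefore joined a rise of IgG with a shallow dip of Input in and just outside the peak. In the first 200 bp the ratio was 1.76 (1.74 to 1.79), and between 500 bp and 1 kb it was 1.25 (1.24 to 1.27). It had fallen to 1.15 (1.14 to 1.15) between 2 and 5 kb and to 1.05 (1.05 to 1.06) between 20 and 50 kb.

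Regions with H3K4me2 and an LSD1 peak had the higher ratio inside, at 2.64 (2.58 to 2.70) against 1.97 (1.95 to 1.99) for regions with H3K4me2 alone. The gap narrowed outward. Between 500 bp and 1 kb from the edge the ratios were 1.33 (1.29 to 1.37) and 1.24 (1.23 to 1.26). Between 5 and 10 kb they were 1.14 (1.13 to 1.16) and 1.11 (1.11 to 1.12), and between 20 and 50 kb they were 1.07 (1.06 to 1.08) and 1.05 (1.05 to 1.06). Inside these regions Input was about the same, at 0.506 RPM per kb with LSD1 and 0.524 without, while IgG was at 1.34 and 1.03. In these values the contrast lay in IgG, but bins of IgG peaks were included and the profile was not computed without them. In whole bins with 1 H3K4me2 peak and an LSD1 peak, leaving them out lowered both libraries. IgG went from 7.65 to 7.16 RPM per bin and Input from 5.27 to 5.07. How much each library adds to the contrast inside regions without these bins was not tested.

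**Figure D2:**
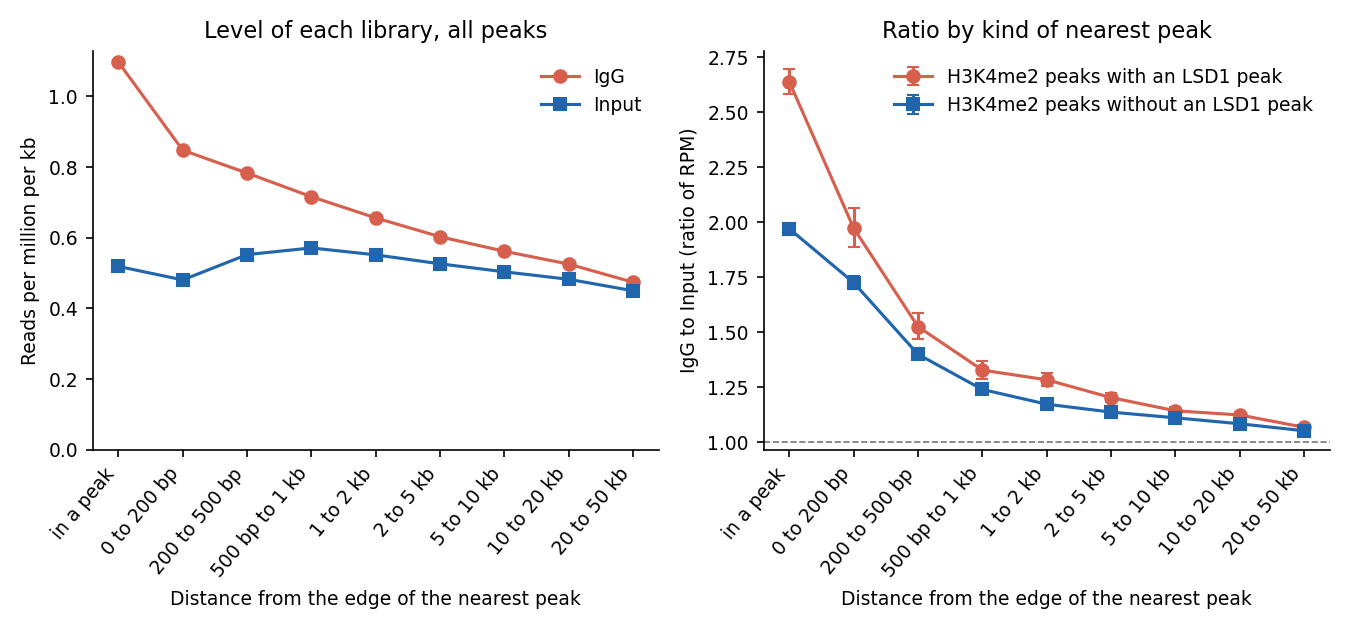
Left, RPM per kb (vertical axis) of IgG (orange) and Input (blue) inside peaks and at rising distance from the edge of the nearest peak; right, the IgG to Input ratio for H3K4me2 regions with (orange) and without (blue) an LSD1 peak, with 95% counting intervals. IgG falls from 1.10 RPM per kb inside peaks to 0.474 at 20 to 50 kb while Input stays between 0.450 and 0.571, and the ratio inside regions with LSD1 is 2.64 against 1.97.

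The dependence on distance reached far beyond the peaks. Bins were grouped by the distance from their edge to the nearest H3K4me2 or LSD1 peak. The ratio was 1.33 in bins that held a peak and 1.11 (1.11 to 1.11) in those under 10 kb away. Between 10 and 20 kb it was 1.08, between 20 and 50 kb 1.05, between 50 and 100 kb 0.997 (0.994 to 1.00) and between 100 and 200 kb 0.940. From 200 to 500 kb it was 0.858 (0.854 to 0.861), and in the 41750 bins at 500 kb or more it was 0.765 (0.762 to 0.768). The ratio was lower at each step, with no overlap between neighbouring intervals. It crossed 1 between 50 and 100 kb, but that place is set by the scaling to library totals. Between bins under 10 kb away and those at 500 kb or more, neither of which hold a peak, the quotient was 1.45 (1.44 to 1.46), and the autosomes lay between 1.36 and 1.58. Beyond 500 kb the decline slowed: the ratio was 0.784 (0.780 to 0.788) up to 1 Mb, 0.738 (0.732 to 0.743) between 1 and 2 Mb and 0.727 (0.717 to 0.737) at 2 Mb or more, where the last 2 intervals overlapped.

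Both libraries fell along this distance, IgG more steeply. Input went from 4.99 RPM per bin under 10 kb to 3.21 at 500 kb or more, and IgG from 5.53 to 2.45, which are 1.55-fold and 2.25-fold differences. How uniquely reads can be placed and the base composition of the DNA change between such regions, and no genome sequence of this build was at hand. Their part in the ratio was not tested. In the run without bins of IgG peaks the ratios at these distances moved by at most 0.001 from under 10 kb outward, and the value in bins with a peak was 1.32.

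**Figure D3:**
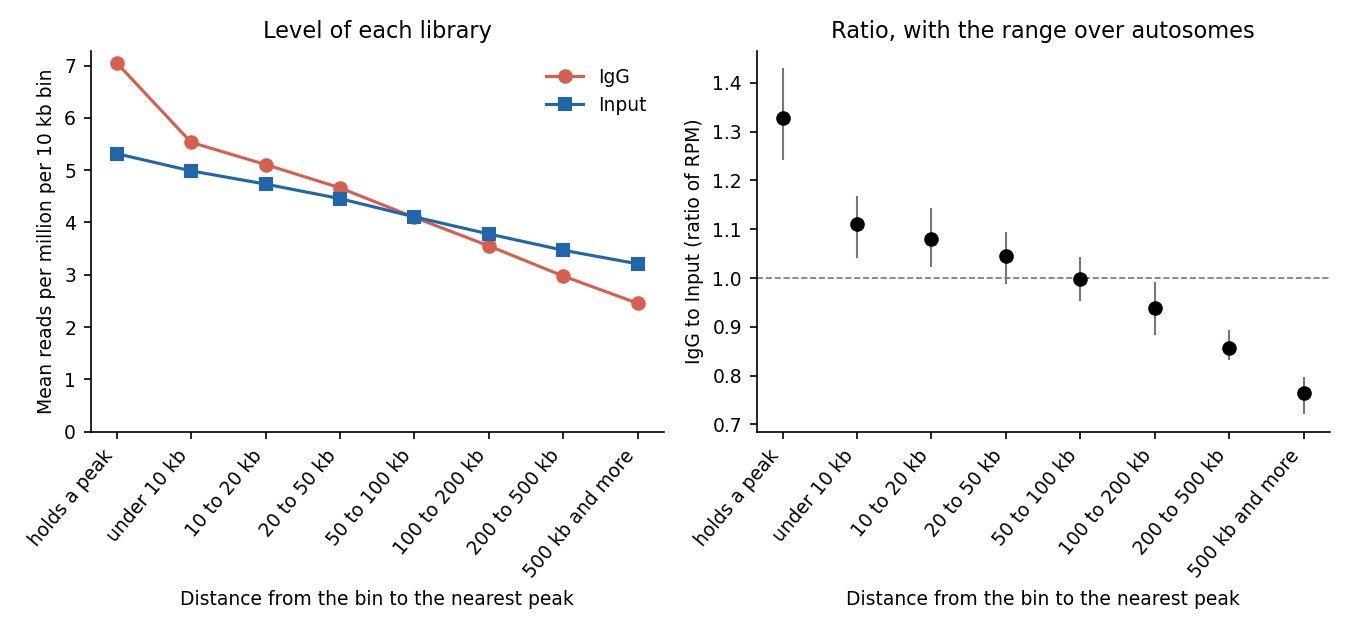
Left, mean RPM per 10 kb bin (vertical axis, from 0) of IgG (orange) and Input (blue) by distance from the bin to the nearest H3K4me2 or LSD1 peak; right, the IgG to Input ratio with its 95% counting interval, too small to see at most points, and the range over 19 autosomes as a grey line. The ratio falls at each step, from 1.33 in bins with a peak to 0.765 at 500 kb or more.

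Distance and the density of peaks in the wider region go together, so bins were also grouped by the number of H3K4me2 peaks within 500 kb on either side. Among bins 20 to 100 kb from a peak, the ratio was 0.884 (0.878 to 0.889) with 1 to 4 such peaks. It was 0.979 (0.973 to 0.984) with 5 to 9, 1.04 (1.04 to 1.05) with 10 to 19 and 1.11 (1.11 to 1.12) with 20 or more. This span holds distance only in part, since the ratio was 1.05 at 20 to 50 kb and 0.997 at 50 to 100 kb. Where the bins of each class lay within the span was not compared. Bins with exactly 1 H3K4me2 peak followed the same order, at 1.16 (1.14 to 1.19), 1.19, 1.20 and 1.31 (1.30 to 1.31). Among these bins the intervals of neighbouring classes overlapped, except that of the class with 20 or more. Both kinds of bin thus differed between regions, and the bin with a peak was higher in each region. The quotient between them was 1.32 (1.29 to 1.35) with 1 to 4 peaks around, 1.21 (1.19 to 1.23) with 5 to 9, 1.15 (1.14 to 1.17) with 10 to 19 and 1.17 (1.16 to 1.18) with 20 or more, so it did not keep falling with density.

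One bin decided the value of lone peaks. The 169 bins with 1 H3K4me2 peak and no other within 500 kb had a ratio of 1.54 (1.48 to 1.61), which would place them above every denser region. Of their 5829 IgG reads, 2466 came from a single bin of chromosome 17, from 39980001 to 39990000. In the run without bins of IgG peaks the ratio was 1.09 (1.03 to 1.15), the lowest of the 5 classes, and the quotient to bins at 20 to 100 kb went from 1.96 to 1.38 (1.27 to 1.50).

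In bins without a peak, an LSD1 peak under 10 kb away went with about the same ratio as one at 10 to 100 kb. Among bins without a peak and with an H3K4me2 peak under 10 kb away, the ratio was 1.15 (1.15 to 1.16) where an LSD1 peak also lay under 10 kb away and 1.14 (1.14 to 1.15) where the nearest was at 10 to 100 kb. These intervals overlapped. Where the nearest LSD1 peak was over 100 kb away the ratio was lower, 1.06 (1.06 to 1.07). Both libraries were also lower there, at 5.02 RPM per bin in IgG and 4.73 in Input, against 5.98 and 5.18 with LSD1 under 10 kb. The density of peaks around the bin was not held fixed in these classes. Neighbouring bins resembled each other over long stretches. Spearman's rho between the log2 ratios of bins without a peak was 0.204 at 10 kb (153879 pairs), 0.168 at 100 kb, 0.109 at 1000 kb and 0.0857 at 2000 kb. These pairs share both libraries and their depth, and bins are not independent.

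Single bins showed the same order with much wider spread. The log2 ratio was computed with 0.5 reads added to each library, in the 207772 bins with at least 20 reads of both controls together. The median was -0.03, with quartiles of -0.43 and 0.37. IgG was at least 2-fold over Input in 8142 bins, or 3.92%, and at least 2-fold under it in 12471, or 6.00%. Against these shares, the bins with 1 H3K4me2 peak had 8.75% over and 0.562% under, and those with 4 or more had 22.3% over and 0 of 942 under. With 3 LSD1 peaks 36 of 79 bins were over, 45.6%, and of the 16 bins with 4 or more LSD1 peaks 62.5% were. At 500 kb or more from a peak only 1.14% were over and 15.1% were under. The medians of the log2 ratio were 0.38 in bins with an H3K4me2 peak and -0.40 at 500 kb or more. The quartiles were 0.06 and 0.71 in the first class and -0.79 and 0.01 in the second, so the ranges between the quartiles did not overlap.

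The share of bins past 2-fold also changed with the read minimum and the bin size. With at least 40 reads, which keeps bins of high coverage, 6.07% were over and 1.17% under, so that the order of both shares turned. Coverage differed by class. Bins with an H3K4me2 peak averaged 7.06 RPM in IgG and 5.32 in Input. Those at 500 kb or more from a peak averaged 2.45 and 3.21. The minimum therefore also changes the mix of classes, and both effects cannot be told apart here. In bins of 50 kb, where counts are larger, 0.176% were over and 0.984% under. The mean bin held 19.6 IgG and 15.6 Input reads. With 20 and 16 reads the ratio is 0.999 and its interval runs from 0.492 to 2.06, so a 2-fold difference in a single mean bin lies at the limit of what this depth can show.

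**Figure D4:**
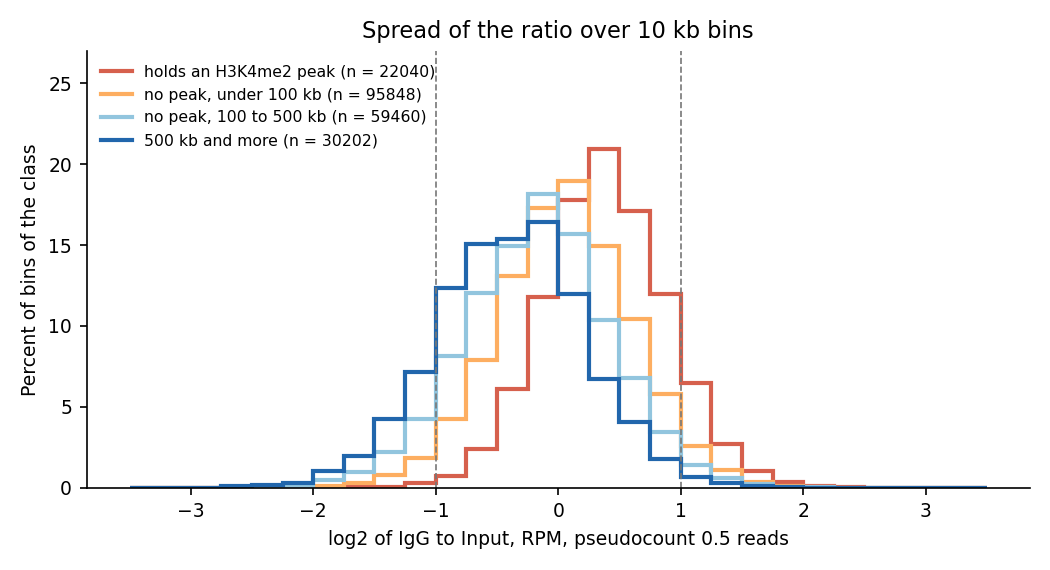
Distribution of the log2 IgG to Input ratio (horizontal axis, 0.5 reads added) over 10 kb bins with at least 20 reads of both controls, as percent of the bins of each class (vertical axis); values beyond the ends are drawn in the outer steps, and dashed lines mark 2-fold. The classes shift from a median of 0.38 in bins with an H3K4me2 peak to -0.40 at 500 kb or more from any peak, and their tails overlap.

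Chromosomes differed in the same sense. The ratio was highest on chromosome 11, at 1.09 (1.09 to 1.10), followed by chromosome 17 with 1.06 (1.05 to 1.07) and chromosome 5 with 1.06 (1.05 to 1.06), whose intervals overlapped. It was lowest on chromosome 3, at 0.927 (0.922 to 0.932), then chromosome 1 with 0.955 (0.950 to 0.959) and chromosome 18 with 0.966 (0.959 to 0.973). The quotient of highest to lowest was 1.18 (1.17 to 1.19), smaller than the 1.38 between bins with H3K4me2 peaks and bins with no peak. Chromosome 11 had 24.5 H3K4me2 peaks per Mb of bins with reads and 11.0% of its bins at 500 kb or more from a peak, whereas chromosome 3 had 8.99 peaks per Mb and 21.4% of such bins. Over the 19 autosomes the ratio and the density of H3K4me2 peaks had a Pearson's r of 0.924 and a Spearman's rho of 0.937. Using only bins without a peak r was 0.855, and in bins at 500 kb or more it was 0.224. These correlations describe chromosomes of the same 2 libraries.

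The differences between autosomes were larger than their makeup by distance class gives. A value computed for each autosome from its Input reads per distance class, with the ratio each class had over all autosomes, ran from 0.974 to 1.06 (SD 0.024, 19 autosomes). The observed ratios ran from 0.927 to 1.09 (SD 0.043). Observed over computed, chromosome 3 was lowest at 0.952 and chromosome 5 highest at 1.04. Chromosome 17 had both the highest ratio in bins with an H3K4me2 peak, 1.43 (1.41 to 1.45), and the lowest at 500 kb or more, 0.721 (0.706 to 0.736). Without bins of IgG peaks its ratio with an H3K4me2 peak was 1.38 (1.35 to 1.40), next to 1.37 (1.36 to 1.39) on chromosome 11. Outside the autosomes, X had a ratio of 0.801 (0.795 to 0.808), below every autosome. With 57.3% of its bins at 500 kb or more from a peak, it had 0.731 (0.722 to 0.740) in those bins and 1.25 (1.19 to 1.32) in bins with an H3K4me2 peak. Y had reads in 223 bins, of which 0.897% held a peak. Its ratio was 0.727 (0.704 to 0.751), and 0.791 (0.716 to 0.874) with an H3K4me2 peak.

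**Figure D5:**
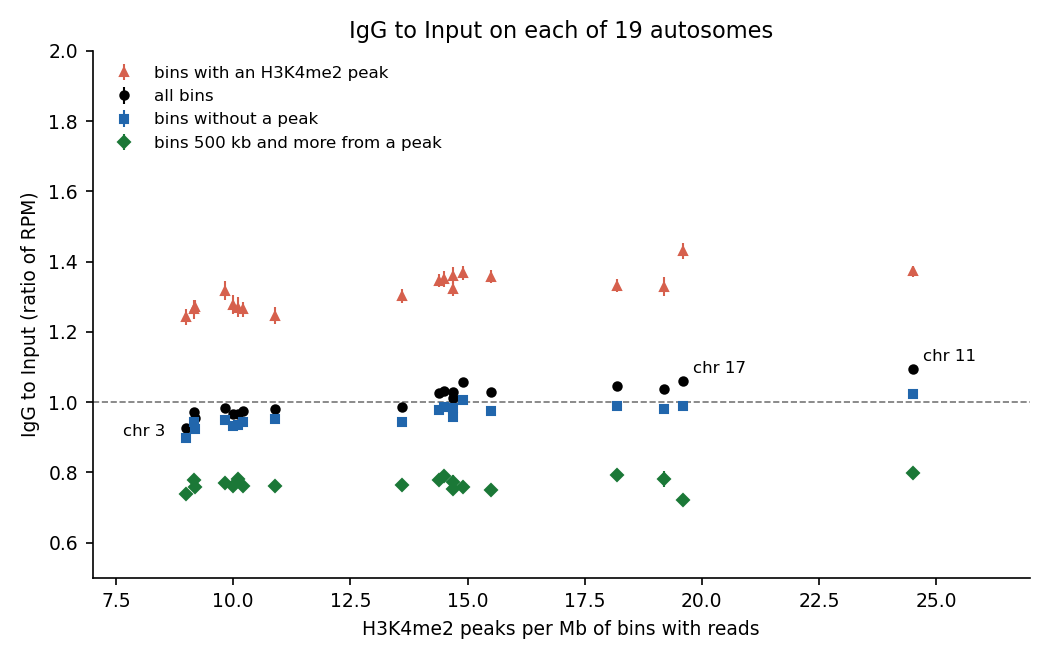
IgG to Input ratio of RPM (vertical axis) on each of the 19 autosomes against H3K4me2 peaks per Mb (horizontal axis), for bins with an H3K4me2 peak (orange), all bins (black), bins without a peak (blue) and bins at 500 kb or more from a peak (green), with 95% counting intervals. All bins run from 0.927 on chromosome 3 to 1.09 on chromosome 11, while bins at 500 kb or more stay between 0.721 and 0.798.

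The bins at both ends of the ratio are given as a description, since the ratio chose them. Positions are in mm9. The highest was on chromosome 5 from 51860001 to 51870000, with 205 IgG and 4 Input reads, a ratio of 41.0 (15.8 to 152). It held 4 IgG peaks, 2 LSD1 peaks and 1 H3K4me2 peak. A second bin close by, from 51880001 to 51890000, held 139 IgG and 12 Input reads, a ratio of 9.26 (5.13 to 18.4). It held 3 IgG peaks and 2 LSD1 peaks but no H3K4me2 peak. The LSD1 library had 107 and 90 reads in these bins and the H3K4me2 library 57 and 35. The other 8 of the 10 highest had 19 to 44 IgG and 2 to 5 Input reads, so their ratios are imprecise. On chromosome 14, for example, the bin from 33660001 to 33670000 held 25 and 2 reads, a ratio of 9.99 (2.49 to 87.0). Of the 10 highest bins, 7 held no H3K4me2 or LSD1 peak. The 10 lowest all lay in bins without a peak, 24.0 to 2290 kb away with a median of 286 kb. They held 2 or 3 IgG and 18 to 27 Input reads each. The lowest was on chromosome 11 from 39260001 to 39270000, with 2 IgG and 24 Input reads, a ratio of 0.0666 (0.00763 to 0.268).

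The 8 bins with the most H3K4me2 peaks, 7 or 8 each, were chosen without the ratio. In 7 of them it was above 1. On chromosome 4 from 133670001 to 133680000 there were 53 IgG and 15 Input reads, a ratio of 2.82 (1.57 to 5.40). On chromosome 17 from 71180001 to 71190000 there were 52 and 16, a ratio of 2.60 (1.46 to 4.87). The bin of chromosome 15 from 25690001 to 25700000 had 47 and 20, a ratio of 1.88 (1.09 to 3.35). The exception was on chromosome 9 from 58090001 to 58100000, with 26 reads in each library and a ratio of 0.799 (0.446 to 1.43), although its 344 H3K4me2 and 166 LSD1 reads were in the range of the others. The intervals of 5 of the 8 lay above 1.

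The bins of IgG peaks with the most IgG reads were of several kinds. The bin of chromosome 17 from 39980001 to 39990000 was high in both controls, with 519 RPM in IgG and 145 in Input, and IgG was 3.58-fold higher (3.27 to 3.94). Of 2 bins near the start of chromosome 11, that from 3030001 to 3040000 had 134 and 82.6 RPM, a ratio of 1.62 (1.41 to 1.86). The one from 3090001 to 3100000 had 133 and 152 RPM, a ratio of 0.876 (0.781 to 0.982), so over the whole bin IgG was lower than Input. Reads inside the IgG peak that it holds were not counted apart. Farther along chromosome 11, from 108870001 to 108880000, Input was at 9.73 RPM and IgG at 34.9, a ratio of 3.59 (2.50 to 5.27). The last of the 5 was the bin of chromosome 5 already described.

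The LSD1 and H3K4me2 libraries were also set against each control over the same distance classes, in bins without a peak. Over Input, the LSD1 library was 1.10 in bins under 10 kb from a peak and 0.595 at 500 kb or more, a quotient of 1.84 (1.84 to 1.85). Over IgG the values were 0.989 and 0.778, a quotient of 1.27 (1.27 to 1.28). The H3K4me2 library had quotients of 2.36 (2.34 to 2.37) over Input and 1.62 (1.62 to 1.63) over IgG. IgG itself over Input had 1.45. Both ChIP libraries thus declined away from peaks against either control. The peaks were called in these same libraries, so higher ChIP reads near them are partly set by that choice. The quotient over IgG equals that over Input divided by the 1.45 of IgG over Input. The smaller decline against IgG thus restates that value. These ratios share the control libraries.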

How the data were processed

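Per the submitters' processing notes the build was mm9. Which aligner, read filters, peak caller, threshold and calling control were used is not given in the sources used here. The authors deposited aligned 36-base reads as 1 line per read, so counts are counts of lines, and lists of peaks with positions only. Per the labels' protocols, fragments of about 200 bp were selected from each library on a gel.

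Read 5′ ends were shifted by 100 bp along the strand before they were assigned to bins. RPM used all reads of a library as its size. A bin holds a peak when they share at least 1 bp. Ratios of summed reads have exact binomial intervals given the total of both counts, and quotients of ratios carry intervals on the log scale from their 4 counts. With 1 library per group no test was made. Named bins are the 10 highest and 10 lowest log2 ratios among bins with at least 20 reads, the 8 with the most H3K4me2 peaks, the 5 bins of IgG peaks with the most IgG reads, and the 3 highest and lowest autosomes. The counting was tested on simulated data. The bins, classes and lists were chosen with earlier results of these data known. The regional density, edge profile, peak width and composition by distance class were added after the files were read. The gene and sequence tables are on GRCm38, not mm9, so no bin was assigned to a gene and no sequence is shown. The software was scipy 1.17.1, pandas 2.3.3, numpy 2.4.6 and matplotlib 3.10.9 under Python 3.11.15.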

Additional observations from a re-analysis of the deposited data

How the results depend on the processing

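Over 8 values, 49 alternatives were computed, and 31 stayed within the interval of the main value (shares within 1.5 times) while 18 moved beyond it. None of the quotients crossed 1. Moving no read start and, for the shares, scaling to reads outside peaks changed nothing beyond those limits. The contrasts, in the order bins with H3K4me2 peaks against none, 4 or more against 0, with LSD1 against without, and near against far, had quotients of 1.38, 1.64, 1.17 and 1.45, which were 1.28, 1.42, 1.07 and 1.40 in bins of 50 kb. With reads outside peaks alone the first 3 were 1.27, 1.42 and 1.07. As medians over bins, H3K4me2 peaks against none gave 1.37, the contrast for LSD1 1.14 and near against far 1.44. These last 2 settings were chosen after seeing the data. With 5 to 50 Input reads only, the contrast for LSD1 was 1.15 and near against far 1.47. Without bins of IgG peaks the contrast for LSD1 was 1.14 and inside against outside peaks 1.71 (main value 1.74). The shares over and under 2-fold moved to 0.176% and 0.984% in bins of 50 kb and to 6.07% and 1.17% with at least 40 reads. Inside against outside peaks was not planned for bins of 50 kb. Why values moved between settings was not tested. No paired analysis was possible because there was a single library of each kind.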
